A study of Saccharomyces cerevisiae with 20 samples.

Results

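The genes described here are 10 genes of trehalose and glycogen metabolism in budding yeast, TPS1, TPS2, TPS3, TSL1, NTH1, GSY1, GSY2, GPH1, PGM2 and UGP1, chosen by name from the 5778 genes common to the 9 deposited tables of gene expression. All 10 were present in each of those tables. The strain with the temperature-sensitive allele, cdc33-ts4-2-HIS3, was set against CDC33-HIS3, both made in haploid BY4741 cells with an integrating plasmid that carried mutant or wild-type sequence to the native locus, so the control had the marker too. CDC33 encodes eIF4E, the protein that binds the cap of mRNAs, and the mutant form is unstable at the restrictive temperature. Cultures in rich medium at 25°C were split, and 1 part was held at 37°C and the other at 25°C for 1 h. Ribosome-protected fragments (RPF) were sequenced from 8 samples, 2 each of cdc33-ts4-2 at 37°C, cdc33-ts4-2 at 25°C, CDC33 at 37°C and CDC33 at 25°C, and poly(A)-selected RNA from 12 samples, 3 each of the same groups. The move to 37°C is a heat shock in both strains, and in the mutant it coincides with loss of eIF4E, so within the mutant alone the contributions of heat and of the lost factor cannot be told apart. The CDC33 mutations are base changes, so the level of CDC33 mRNA checks no label.

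Trehalose is a disaccharide of glucose that yeast makes under heat and starvation, and glycogen is its branched glucose polymer for storage. Both pathways start from glucose-6-phosphate, which phosphoglucomutase (PGM2 encodes the main enzyme) turns into glucose-1-phosphate and UGP1, UDP-glucose pyrophosphorylase, into UDP-glucose. TPS1, trehalose-6-phosphate synthase, and TPS2, the phosphatase of the next step, form a complex with the regulatory subunits TPS3 and TSL1, and NTH1, neutral trehalase, breaks trehalose down. GSY1 and GSY2 encode glycogen synthases, of which Gsy2 is the main form, and GPH1 encodes glycogen phosphorylase, which releases glucose-1-phosphate. Most of these genes are classical targets of the general stress response. In the R64 reference each of the 10 is a protein-coding gene with 1 uninterrupted coding sequence. The trehalose genes are TPS1 (YBR126C, chrII:488905-490392, minus strand), TPS2 (YDR074W, chrIV:593893-596583, plus strand), TPS3 (YMR261C, chrXIII:790205-793369, minus strand), TSL1 (YML100W, chrXIII:70624-73920, plus strand) and NTH1 (YDR001C, chrIV:450220-452475, minus strand). The glycogen genes are GSY1 (YFR015C, chrVI:174265-176391, minus strand), GSY2 (YLR258W, chrXII:660716-662833, plus strand) and GPH1 (YPR160W, chrXVI:861306-864014, plus strand). The genes of the shared steps are PGM2 (YMR105C, chrXIII:475897-477606, minus strand) and UGP1 (YKL035W, chrXI:369891-371390, plus strand).

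Without the deposited comparisons, 2 kinds of value were available for these genes. The first is the mean normalised read count per gene over all samples of an assay, which the authors computed and which holds no information on single groups. The second is a density, the reads per length in the 5′ or 3′ untranslated region (UTR) divided by the reads per length in the coding sequence of the same gene and sample, so a density of 1 means equal coverage. For TPS1, TPS2, TPS3, NTH1 and GSY2, 5 of the 10, densities were given in all 20 samples. GSY1 had 9 of 20 values and GPH1 had 18 for the 5′ UTR, with no means to say which samples were blank, and both were left out. TSL1, PGM2 and UGP1 had no densities analysed here. A density compares 2 parts of 1 transcript, so it does not say whether the transcript itself became more or less abundant. The samples' read totals are unknown, so no counting error could be attached to a single density. The paper reports RPF reads without the usual length peak or in-frame enrichment, possibly from incomplete RNase digestion. It still took them as ribosome-bound fragments, since they were enriched in coding sequences and 5′ UTRs and sparse in introns and 3′ UTRs. It also reports positional coverage centred on the start of the coding sequence. Cycloheximide was added before harvest, and the paper names it as a source of artifacts, minimal at gene level. Reads lying only partly in a UTR could count there, so reads over a start codon may enter the 5′ density. The effect of these points was not tested.

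Because the densities concern the leader in front of the start codon, the bases around that codon are shown for the 5 genes with densities, from 12 bases before it to 6 bases from its first, read from the R64 reference of RefSeq in the coding direction with the start codon in capitals.
TPS1 (chrII:490387-490404, minus strand): agacatagaactATGact
TPS2 (chrIV:593881-593898, plus strand): ttctgtgccgaaATGacc
TPS3 (chrXIII:793364-793381, minus strand): cgggcaacctcaATGact
NTH1 (chrIV:452470-452487, minus strand): aaaatcagtagaATGagt
GSY2 (chrXII:660704-660721, plus strand): gaaaaattttgaATGtcc
An A at position -3, counted back from the start codon, is the most common base there in yeast. It was present in 7 of the 10 genes, against 60.9% of 6015 annotated coding genes. Among the 5 genes shown, TPS1 and NTH1 had it, TPS2 had G, and TPS3 and GSY2 had T.

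An ATG upstream of the main start codon can open a short upstream reading frame that captures scanning ribosomes. Within the 120 bases before the start codon, on the coding strand only, an ATG occurred in 3 of the 10 genes, TSL1, GSY2 and PGM2, against 61.8% of all 6015 genes. In GSY2 the A of that ATG lay at position -90, in frame with the main start codon, and the frame closed after 19 codons at a stop at position -33. It is shown with 9 bases on each side and the ATG in capitals, because GSY2 is the only gene with densities that holds one.
GSY2 (chrXII:660617-660637, plus strand): tccttaaatATGttagctatc
TPS2 is the only one of the 5 genes for which the deposited table of transcript features gave a leader, of 205 nt, together with a 3′ UTR of 237 nt and 0 upstream reading frames. Of the genes without usable densities, the table listed a leader of 89 nt and a 3′ UTR of 203 nt for GSY1, and a leader of 1671 nt and a 3′ UTR of 129 nt for PGM2, each with 0 upstream reading frames. For PGM2 that count stood beside an ATG at position -93 in the reference, in frame with the main start codon and closed after 7 codons. No ATG was found in the 205 bases before the start codon of TPS2. A match or its absence describes these letters only, and the leader lengths of the other 4 genes were not given.

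Per kilobase of coding sequence, footprints on these genes spanned a wide range. TPS1 and UGP1 stood highest, with 2260 and 2134 normalised RPF counts per kb, and GSY1 lowest, with 65.7. The other genes followed in the order TSL1 (1376), NTH1 (1199), PGM2 (1026), TPS2 (931), TPS3 (598), GSY2 (539) and GPH1 (285), beside 304 for the median of 5094 genes with a mean of at least 20 in both assays. In RNA the order differed, with 2093 normalised counts per kb for UGP1, 1034 for TPS1, 573 for GSY2, 392 for PGM2, 377 for TPS3, 340 for TSL1, 332 for NTH1, 214 for GPH1, 186 for TPS2 and 51.0 for GSY1. The median gene had 217. These are single pooled means without an error, so neighbours in either order cannot be said to differ. By the paper's methods the counts also took in short flanks on both sides of the coding sequence, whereas the length used here is the coding length alone. Flank reads thus enter these levels and the ratio of RPF to RNA. The paralogous pairs GSY1 and GSY2, TPS3 and TSL1, and PGM2 and PGM1 may exchange reads where their sequences match, so their separate levels are uncertain to that extent.

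The ratio of mean RPF to mean RNA count, a measure of ribosomes per transcript pooled over all strains and temperatures, was above that of the median gene for 6 of the 10 genes. It was highest for TPS2, the phosphatase, at 3.63 times the median gene, which placed it at the 94.9th percentile of all genes. TSL1 followed at 2.94 times (91.9th percentile), NTH1 at 2.63 times (89.4th), PGM2 at 1.91 times (79.4th), TPS1 at 1.59 times (72.2nd) and TPS3 at 1.16 times (56.8th). GPH1 at 0.966 times and GSY1 at 0.937 times lay close to the median gene. UGP1 at 0.741 times and GSY2 at 0.685 times lay under it. All 5 genes of the trehalose group were above the median gene, and all 3 glycogen enzymes were below it, which is a description of pooled means without a test. The median over the 10 genes was 1.36 times that of the median gene. Of a wider list of 24 other genes of both pathways and their regulators, 22 reached the minimum mean, 11 of them stood above the median gene, and their median was 0.998 times it.

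**Figure D1:**
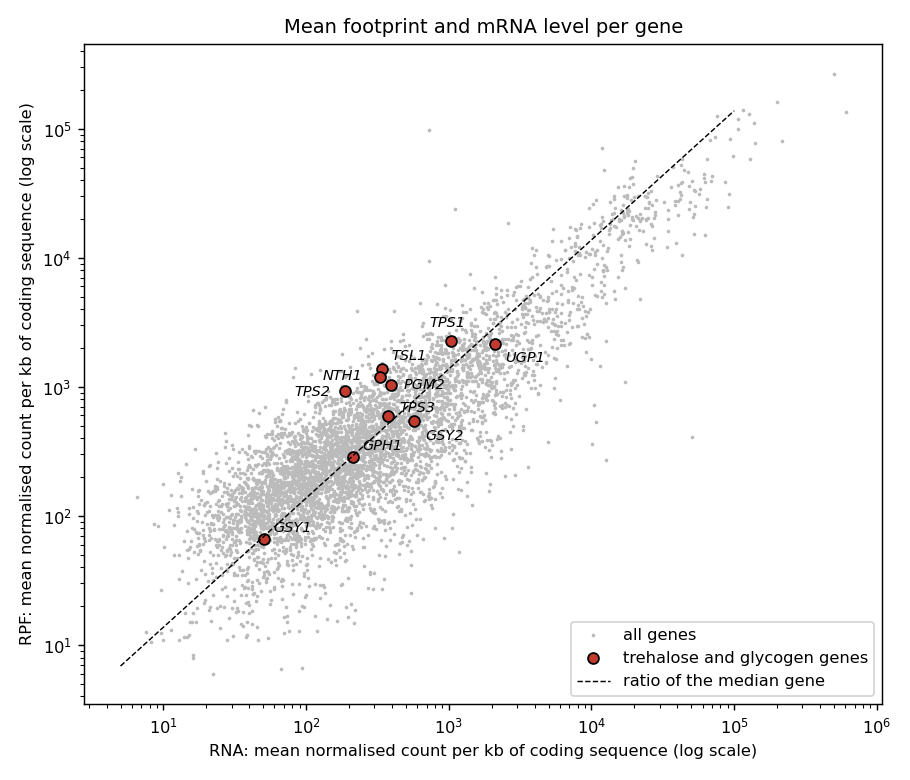
Mean normalised RPF count per kb of coding sequence (vertical, log scale) against the same for RNA (horizontal, log scale), 1 point per gene, for 5094 genes in grey and the 10 named genes in red. TPS2, TSL1 and NTH1 sit furthest above the dashed line, which marks the ratio of the median gene, while GSY2 and UGP1 sit under it.

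Footprints in a 5′ UTR are usually sparse, since scanning subunits are not full ribosomes. For the median gene the density was 0.182 and 0.189 in the RPF samples of cdc33-ts4-2 at 37°C and between 0.0379 and 0.1004 in the other 6, against 0.350 to 0.678 in the 12 RNA samples. TPS2 did not follow this pattern, with median densities of 0.708 in RPF and 0.380 in RNA. Leader footprints denser than those of the median gene were not particular to it. The RPF medians were 0.798 for GSY2, 0.445 for NTH1 and 0.342 for TPS3, while TPS1 had 0.0667. The 5′ UTR density of TPS2 in RPF was 2.35 and 1.95 in cdc33-ts4-2 at 37°C, 0.658 and 0.922 in cdc33-ts4-2 at 25°C, 0.704 and 0.661 in CDC33 at 37°C, and 0.358 and 0.712 in CDC33 at 25°C. In RNA it was 0.537, 0.390 and 0.338 in cdc33-ts4-2 at 37°C, 0.369, 0.520 and 0.483 in cdc33-ts4-2 at 25°C, 0.332, 0.243 and 0.163 in CDC33 at 37°C, and 0.455, 0.280 and 0.531 in CDC33 at 25°C. Footprints on the leader of TPS2 were thus sparser than on its coding sequence in 6 samples and denser in both mutant samples at 37°C, while its RNA coverage was lower than over the coding sequence in all 12 samples. The assays overlapped only through the lowest RPF sample, one of CDC33 at 25°C.

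Averaged over the 4 strain and temperature groups, the log2 5′ UTR density of TPS2 was 1.23 ± 0.18 higher in RPF than in RNA (SE, limma on 20 samples), a 2.34-fold difference with an adjusted p of 1.2e-05. This test used log2 of the density plus 0.01, and p-values were adjusted over the 1218 genes with all 20 values. Of the 5 genes 1, TPS2, was called higher in RPF, against 11.1% of all genes, and its difference stood at the 94.2nd percentile. The other 4 were called lower in RPF, against 75.6% of all genes, and the median gene had a log2 difference of -1.88. Centring each sample on its median gene took -2.35 off these differences and turned the split round, with 4 of the 5 called higher in RPF, against 50.2% of all genes, and 1, TPS1, called lower, against 29.4%. TPS2 then had a log2 difference of 3.57 (limma adjusted p 1.3e-10), and the median of all genes was 0.47.

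TPS1, the synthase, had the sparsest footprints on its leader. Its RPF density was 0.133 and 0.137 in cdc33-ts4-2 at 37°C, 0.0698 and 0.105 in cdc33-ts4-2 at 25°C, 0.0636 and 0.0573 in CDC33 at 37°C, and 0.0360 and 0.0290 in CDC33 at 25°C, whereas its RNA density was 0.281 to 0.728 over the 12 samples, with a median of 0.594. Every RPF sample of TPS1 was below every RNA sample, which held for 1 of the 5 genes and for 45.1% of all genes. Its log2 difference between RPF and RNA was -2.89 ± 0.14 (SE; limma adjusted p 9.8e-11), at the 28.0th percentile. Centred on each sample's median gene it was -0.54 (limma adjusted p 0.0028). None of the 5 genes had every RPF sample above every RNA sample, as did 1.81% of all genes.

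In the difference between RPF and RNA, NTH1, TPS3 and GSY2 lay between TPS1 and TPS2. In RPF alone the median density of GSY2 was above the 0.708 of TPS2. NTH1, the trehalase, had RPF densities of 0.208 to 0.557 with a median of 0.445, against RNA densities of 0.460 to 0.822 with a median of 0.612, and a log2 difference of -0.61 ± 0.11 (SE; limma adjusted p 0.00016). TPS3 had RPF densities of 0.135 to 0.938 with a median of 0.342, against 0.253 to 0.719 with a median of 0.525 in RNA, and a log2 difference of -0.41 ± 0.17 (SE; limma adjusted p 0.033). GSY2 had RPF densities of 0.196 to 1.36 with a median of 0.798, against 0.717 to 1.75 with a median of 0.946 in RNA, and a log2 difference of -0.63 ± 0.25 (SE; limma adjusted p 0.029). The assays overlapped for all 3 genes, and the call for TPS3 was lost with the replicate number as a block in the model. Relative to each sample's median gene these 3 differences turned round, to a log2 of 1.74 for NTH1, 1.93 for TPS3 and 1.72 for GSY2, since footprints of the median gene were sparser still. The calls for TPS3 and GSY2 were both lost when CDC33 at 25°C replicate 1 of RPF was left out, with log2 differences of -0.25 and -0.40, and likewise without CDC33 at 37°C replicate 1, cdc33-ts4-2 at 25°C replicate 1 or cdc33-ts4-2 at 37°C replicate 2 of RPF. Without single RNA samples TPS3 lost its call in 4 cases (CDC33 at 25°C replicate 2, CDC33 at 37°C replicate 1, and replicate 3 of cdc33-ts4-2 at either temperature) and GSY2 in 2 (CDC33 at 25°C replicate 3 and at 37°C replicate 2), with limma adjusted p-values of 0.0506 to 0.0571.

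**Figure D2:**
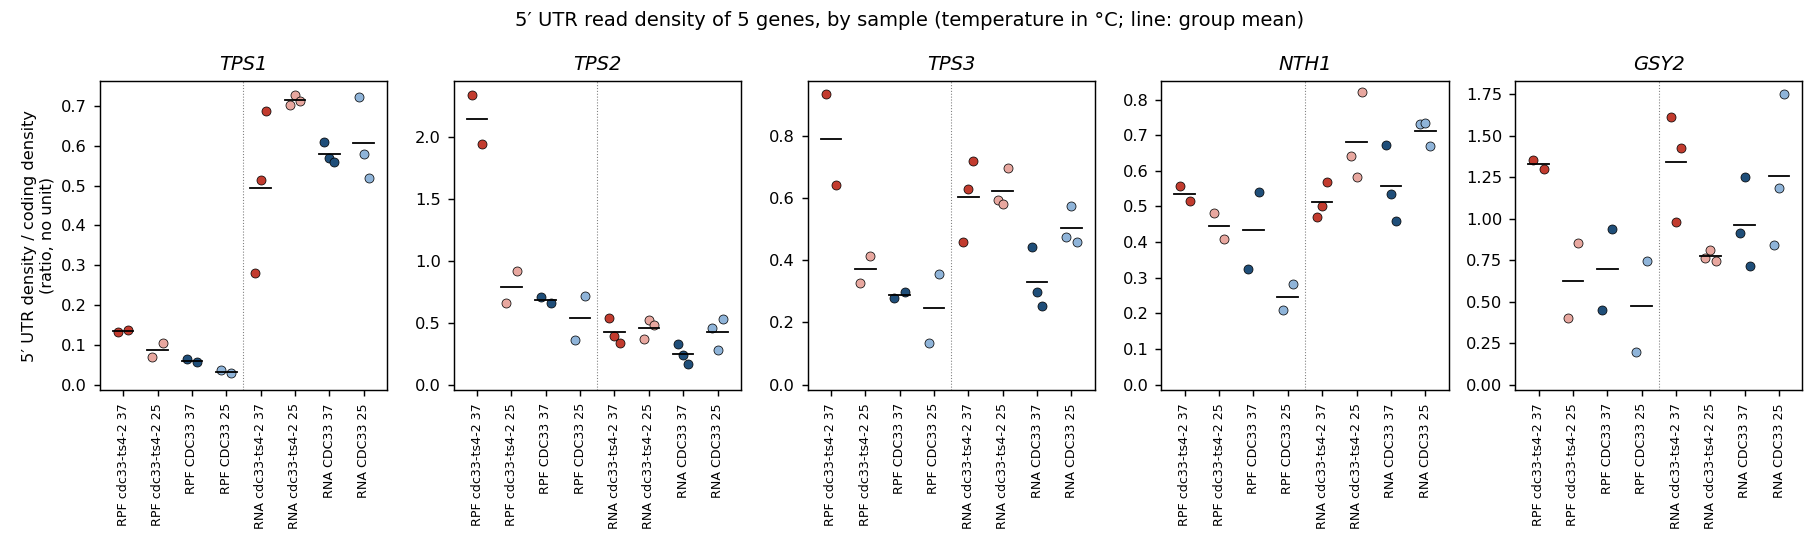
5′ UTR read density over coding read density (vertical, ratio without unit, linear scale from 0) for each sample, in RPF left of the dotted line and RNA right of it, by strain and temperature, with points for samples and lines for group means (n = 2 per RPF group, n = 3 per RNA group). In TPS2 the mutant at 37°C reached 2.35 and 1.95 in RPF, above all other samples, and in TPS1 all 8 RPF samples lay under the 12 RNA samples.

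**Figure D3:**
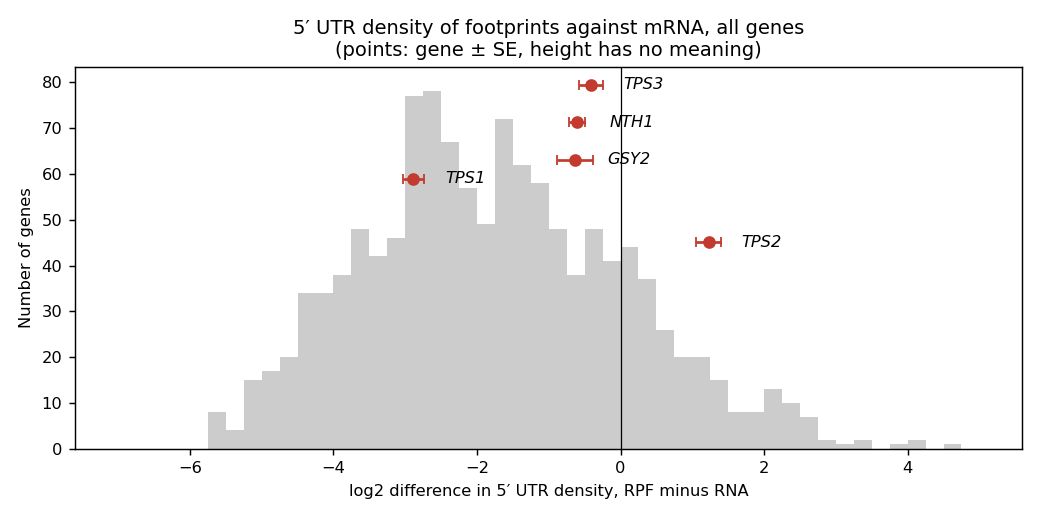
Number of genes (vertical) by their log2 difference in 5′ UTR density, RPF minus RNA, averaged over the 4 strain and temperature groups (horizontal), for 1218 genes in grey bars, with the 5 named genes as points ± SE whose height has no meaning. TPS2 lies right of 0 at 1.23, TPS1 at -2.89, and the other 3 genes between -0.63 and -0.41, which become 1.72 to 1.93 when samples are centred on their median gene, with TPS2 then at 3.57 and TPS1 at -0.54.

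The effect of 37°C on footprints in the leaders was compared within each strain. In cdc33-ts4-2 cells TPS2 rose with temperature, with a mean RPF density of 2.15 ± 0.28 at 37°C and 0.790 ± 0.19 at 25°C (SD, n = 2 each). The log2 difference was 1.44 ± 0.36 (SE) with a limma adjusted p of 0.0498, only just past the threshold of 0.05. This made 1 of the 5 genes called higher, against 16.8% of all 1218 genes, and the median gene differed by a log2 of 0.80, so TPS2 stood at the 74.1st percentile. The call for TPS2 was lost without either replicate of cdc33-ts4-2 at 37°C, of cdc33-ts4-2 at 25°C or of CDC33 at 37°C. With a replicate left out the log2 difference ran from 1.20 to 1.69. The call was also lost with a pseudocount of 0.001 (limma adjusted p 0.061) and with the replicate number as a block in the model. After centring each sample on its median gene it was lost too, with a difference of 0.17 (limma adjusted p 0.75). The median of all genes was then -0.47.

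The densities of the other 4 leaders had positive log2 differences in the mutant too, none of which passed the test. TPS3 had RPF densities of 0.938 and 0.643 in cdc33-ts4-2 at 37°C, against 0.328 and 0.415 in cdc33-ts4-2 at 25°C, a log2 difference of 1.06 ± 0.46 (SE; limma adjusted p 0.15). GSY2 had 1.36 and 1.30 at 37°C, against 0.399 and 0.850 at 25°C, a log2 difference of 1.17 ± 0.73 (SE; limma adjusted p 0.29). For TPS1 the log2 difference was 0.60 ± 0.36 (SE; limma adjusted p 0.26), and for NTH1, with 0.557 and 0.514 at 37°C against 0.481 and 0.409 at 25°C, it was 0.27 ± 0.29 (SE; limma adjusted p 0.54). In all 5 genes both 37°C samples were above both 25°C samples, as in 62.4% of all genes. In TPS1, TPS2, TPS3 and GSY2, 4 of the 5, both mutant samples at 37°C were above the 6 other RPF samples, as in 47.1% of all genes. NTH1 was the exception, through a CDC33 sample at 37°C with a density of 0.540. Centring each sample on its median gene took 1.27 off the log2 differences of the mutant and 0.86 off those of CDC33, and turned those of TPS1, TPS3, NTH1 and GSY2 in the mutant to -0.67, -0.22, -1.01 and -0.10, that of NTH1 with a limma adjusted p of 0.022. NTH1 was then the 1 gene of 5 called lower, against 17.7% of all genes. Over all genes the centred differences had a median of -0.47 in the mutant. TPS2, TPS3 and GSY2 lay above that median, and TPS1 and NTH1 lay under it. Without either CDC33 replicate at 25°C, TPS3 was called as well (limma adjusted p 0.041 and 0.042).

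In CDC33 cells 0 of the 5 genes were called between 37°C and 25°C in RPF, against 14% of all genes, with 1 of the 5 at an unadjusted limma p under 0.05, against 35.8% of all genes. That gene was NTH1, with RPF densities of 0.326 and 0.540 in CDC33 at 37°C, against 0.208 and 0.281 in CDC33 at 25°C, and a log2 difference of 0.77 ± 0.29 (SE; limma adjusted p 0.12). TPS1 had a log2 difference of 0.73 ± 0.36, GSY2 of 0.75 ± 0.73, TPS2 of 0.43 ± 0.36 and TPS3 of 0.37 ± 0.46 (SE), beside 0.73 for the median gene. The 37°C samples were above the 25°C samples without overlap for TPS1 and NTH1, 2 of the 5 genes, against 55.7% of all genes. For TPS2, TPS3 and GSY2 one CDC33 sample at 25°C lay above at least 1 CDC33 sample at 37°C, and without the other CDC33 replicate at 25°C, replicate 1, their differences became -0.062, -0.29 and -0.19. Relative to each sample's median gene all 5 differences in CDC33 were below 0, from -0.49 for TPS3 to -0.094 for NTH1. The median of all genes was then below 0 too, at -0.13.

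Whether the temperature effect differed between the strains was tested as the mutant's difference minus that of CDC33. In RPF 0 of the 5 genes were called, against 0.246% of all genes, and 0 had an unadjusted limma p under 0.05, against 10.8% of all genes. The values were 1.02 ± 0.51 for TPS2, 0.68 ± 0.66 for TPS3, 0.43 ± 1.03 for GSY2, -0.13 ± 0.50 for TPS1 and -0.50 ± 0.41 for NTH1 (log2, SE), with limma adjusted p-values of 0.53, 0.75, 0.92, 0.95 and 0.71. The call for TPS2 in the mutant is therefore not shown to be particular to the mutant. With 2 samples per group these standard errors leave room for differences of the size seen in TPS2. The median gene had a strain difference of 0.048 in RPF. Centring each sample on its median gene took 0.41 off these strain differences, and the median of all genes was then -0.36.

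**Figure D4:**
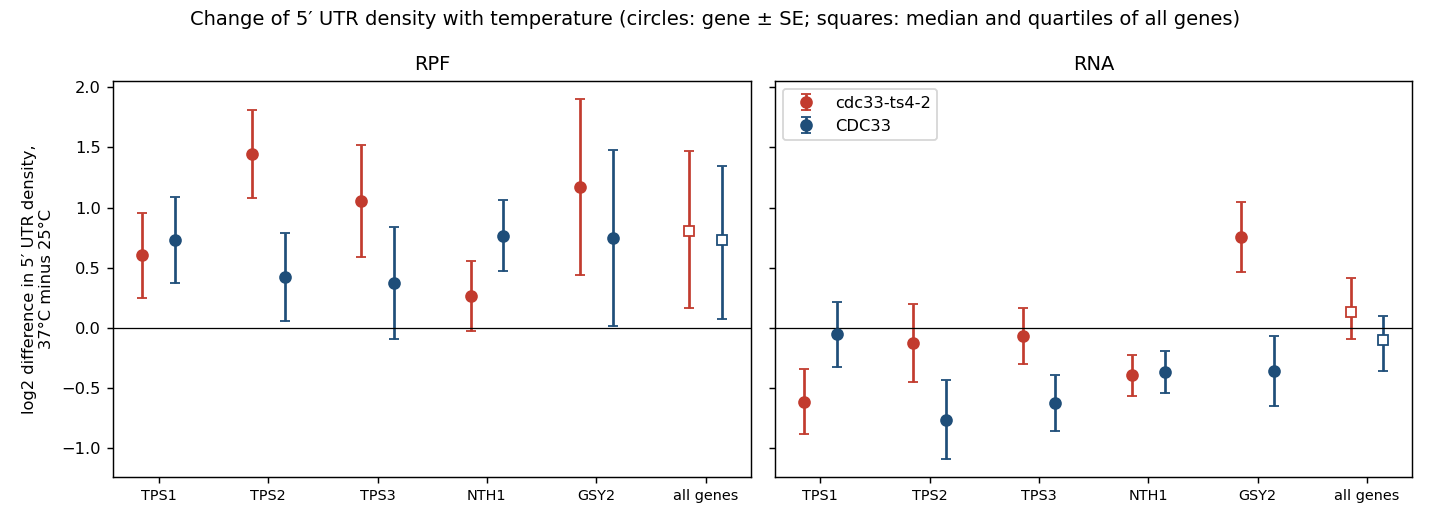
Log2 difference in 5′ UTR density, 37°C minus 25°C (vertical), in RPF (left panel) and RNA (right panel), for cdc33-ts4-2 in red and CDC33 in blue, with circles for genes ± SE and open squares for the median and quartiles of 1218 genes. In RPF every gene and both medians lie above 0, with TPS2 in the mutant highest at 1.44 and the only one still above 0, at 0.17, when samples are centred on their median gene, whereas in RNA only GSY2 in the mutant, at 0.76, and the median of all genes in the mutant, at 0.13, lie above 0. When samples are centred, GSY2 in the mutant at 0.61, TPS1 in CDC33 at 0.079 and the CDC33 median at 0.034 lie above 0 in RNA, and the mutant median at -0.012 does not. In RPF the medians of all genes are then -0.47 in the mutant and -0.13 in CDC33.

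In RNA the same comparisons describe coverage of the transcript itself. In cdc33-ts4-2 cells 0 of the 5 genes were called between 37°C and 25°C, against 3.78% of all genes, with 3 of the 5 at an unadjusted limma p under 0.05, against 14% of all genes. GSY2 had RNA densities of 1.61, 0.979 and 1.43 in cdc33-ts4-2 at 37°C, against 0.760, 0.812 and 0.747 in cdc33-ts4-2 at 25°C, a log2 difference of 0.76 ± 0.29 (SE; limma adjusted p 0.26). It was the 1 gene of 5 with every 37°C sample above every 25°C sample, against 17.5% of all genes. TPS1 had 0.281, 0.513 and 0.689 at 37°C, against 0.703, 0.728 and 0.714 at 25°C (log2 difference -0.61 ± 0.27 SE; limma adjusted p 0.34), and NTH1 had 0.470, 0.500 and 0.567 at 37°C, against 0.641, 0.583 and 0.822 at 25°C (-0.39 ± 0.17 SE; limma adjusted p 0.34). In these 2 of 5 genes every 37°C sample was below every 25°C sample, against 3.28% of all genes. For TPS2 and TPS3 the log2 differences were -0.13 ± 0.33 and -0.068 ± 0.23 (SE). The denser footprints in the leader of TPS2 in the mutant at 37°C had no counterpart of that size in its RNA coverage, although the difference of these 2 differences was not tested.

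In CDC33 cells 0 of the 5 genes were called in RNA, against 0.575% of all genes, with 2 of the 5, TPS2 and TPS3, at an unadjusted limma p under 0.05, against 10.9% of all genes. TPS3 had RNA densities of 0.443, 0.297 and 0.253 in CDC33 at 37°C, against 0.474, 0.575 and 0.460 in CDC33 at 25°C, a log2 difference of -0.62 ± 0.23 (SE; limma adjusted p 0.34). It was the 1 gene of 5 with every 37°C sample below every 25°C sample, against 9.36% of all genes. TPS2 had a log2 difference of -0.76 ± 0.33 (SE; limma adjusted p 0.44). Between the strains, the difference of the RNA differences gave 0 calls among the 5 genes, against 0.985% of all genes. The value furthest from 0 was that of GSY2, 1.11 ± 0.41 (log2, SE; limma adjusted p 0.29), the only one of the 5 at an unadjusted limma p under 0.05, against 12.8% of all genes. The median gene had 0.25. Centring each sample on its median gene took 0.28 off these strain differences, and the median of all genes was then -0.031.

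The 3′ UTR lies behind the stop codon, where translating ribosomes have left the mRNA, and footprints there are normally rare. In all 5 genes every RPF sample was below every RNA sample in 3′ UTR density, as in 98.7% of 1208 genes. TPS3 had RPF densities of 0.288 and 0.222 in cdc33-ts4-2 at 37°C, 0.0192 and 0 in cdc33-ts4-2 at 25°C, 0.00705 and 0.00568 in CDC33 at 37°C, and 0 and 0 in CDC33 at 25°C. TPS2 had 0.123 and 0.124 in cdc33-ts4-2 at 37°C, 0 and 0.00578 in cdc33-ts4-2 at 25°C, 0.0110 and 0.0117 in CDC33 at 37°C, and 0 and 0 in CDC33 at 25°C. In both genes the mutant at 37°C stood apart from the other 3 groups, which were at or near 0.

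In GSY2 the mutant at 37°C was again highest, with 0.0797 and 0.109 in cdc33-ts4-2 at 37°C, 0 and 0 in cdc33-ts4-2 at 25°C, 0.00732 and 0.0102 in CDC33 at 37°C, and 0.0198 and 0 in CDC33 at 25°C. TPS1 had 0.0627 and 0.0355 in cdc33-ts4-2 at 37°C, against 0.00380 to 0.0179 in the other 6 RPF samples. NTH1 had a single value above 0, of 0.00817, in 1 sample of cdc33-ts4-2 at 37°C. Both mutant samples at 37°C were above the 6 other RPF samples in TPS1, TPS2, TPS3 and GSY2, 4 of the 5 genes, as in 46% of all genes. The median gene moved likewise, with 0.0102 and 0.0170 in cdc33-ts4-2 at 37°C and 0 to 0.00372 in the other 6 samples. Many of these values are 0 and none has a known count behind it, so no test was made.

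In RNA the 3′ UTRs of these genes were covered more densely than their coding sequences in most samples, and that of TPS2 most of all. TPS2 had RNA densities of 4.95, 4.77 and 4.09 in cdc33-ts4-2 at 37°C, 2.03, 2.25 and 2.34 in cdc33-ts4-2 at 25°C, 3.18, 2.95 and 4.01 in CDC33 at 37°C, and 1.82, 2.87 and 2.27 in CDC33 at 25°C. Every mutant sample at 37°C was above the 9 other RNA samples in TPS2, 1 of the 5 genes, as in 5.05% of all genes. NTH1 had 3.12, 2.13 and 2.60 in cdc33-ts4-2 at 37°C, against 1.64, 0.780 and 1.20 in cdc33-ts4-2 at 25°C. TPS1 had 2.11, 1.15 and 1.49 in cdc33-ts4-2 at 37°C, against 1.08, 0.901 and 1.04 in cdc33-ts4-2 at 25°C. In TPS1, TPS2 and NTH1, 3 of the 5 genes, every mutant sample at 37°C was above every mutant sample at 25°C, as in 18.7% of all genes. Every CDC33 sample at 37°C was above every CDC33 sample at 25°C in TPS2, 1 of the 5 genes, as in 4.47% of all genes. The median gene had 0.809 to 0.865 in cdc33-ts4-2 at 37°C, against 0.754 to 0.897 in cdc33-ts4-2 at 25°C. The RNA was selected by its poly(A) tail and then fragmented, and the part of 3′ coverage that comes from this step was not tested.

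**Figure D5:**
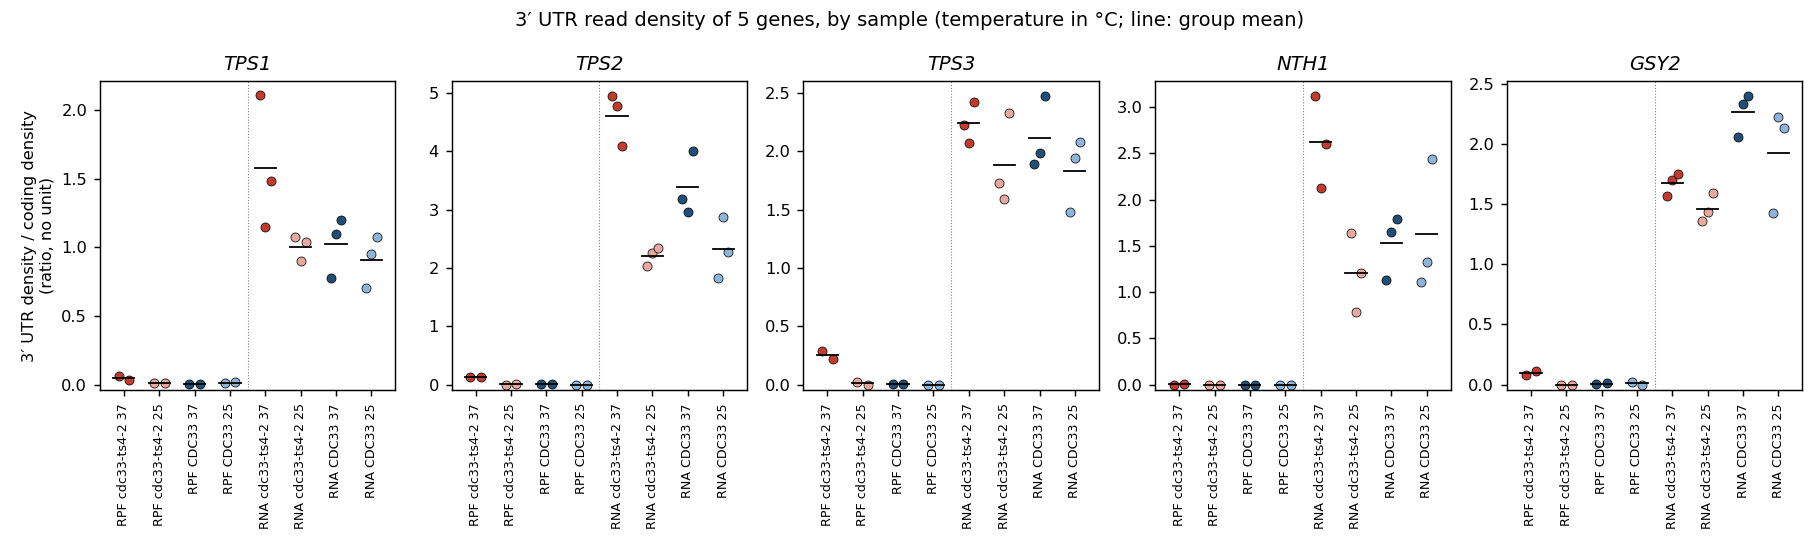
3′ UTR read density over coding read density (vertical, ratio without unit, linear scale from 0) for each sample, in RPF left of the dotted line and RNA right of it, by strain and temperature, with points for samples and lines for group means (n = 2 per RPF group, n = 3 per RNA group). The 8 RPF samples lie under the 12 RNA samples in all 5 genes, and in TPS2 the 3 RNA samples of the mutant at 37°C, at 4.09 to 4.95, lie above the 9 others.

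Of the 24 other genes of both pathways, their priming and branching enzymes, kinases, phosphatases and regulators, 6 had all 20 values for the 5′ UTR. None of the 6 was called between 37°C and 25°C in either strain or assay, nor between strains, by limma. Of all genes, 17.2% were called in RPF of cdc33-ts4-2 and 14% in RPF of CDC33. In RNA the shares were 3.78% in cdc33-ts4-2 and 0.575% in CDC33. For the strain difference they were 0.246% in RPF and 0.985% in RNA. At an unadjusted limma p under 0.05 stood 1 of the 6 in each of 4 comparisons: PGM1 in RPF and in RNA of cdc33-ts4-2 (41.4% and 14% of all genes), GLC7 in RPF of CDC33 (35.8%) and PSK1 in the strain difference in RNA (12.8%). Between RPF and RNA, 2 were called higher, against 11.1% of all genes, and 4 lower, against 75.6%. With centring on each sample's median gene 3 were called higher, against 50.2% of all genes, and 0 lower, against 29.4%, with values above 0 for 4 and below 0 for 2. PSK1, a PAS kinase whose known targets include Ugp1 and glycogen synthase, had the largest increase, a log2 difference of 2.56 ± 0.21 (SE; limma adjusted p 2.8e-08), with RPF densities of 3.10 and 2.76 in cdc33-ts4-2 at 37°C, 2.49 and 2.63 in cdc33-ts4-2 at 25°C, 3.89 and 2.78 in CDC33 at 37°C, and 1.43 and 3.51 in CDC33 at 25°C. The largest decreases were those of GLC7, the catalytic subunit of protein phosphatase 1 that activates glycogen synthase, at -2.68 ± 0.25 (log2, SE; limma adjusted p 1.1e-07), and of PGM1, the minor phosphoglucomutase, at -2.42 ± 0.20 (log2, SE; limma adjusted p 3.1e-08). Centred on each sample's median gene these became -0.33 for GLC7 and -0.076 for PGM1, with limma adjusted p-values of 0.19 and 0.72.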

How the data were processed

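RNA-seq (12 samples) and ribosome profiling (8 samples) of cdc33-ts4-2 and CDC33 yeast at 37°C and 25°C were analysed from the processed tables. Labels gave strain, temperature, assay and replicate. The deposited densities are a ratio of UTR to coding reads per length, which the authors obtained with STAR 2.7.10b on R64 and featureCounts 2.01 from uniquely mapped reads. The deposited mean counts are a signal, which the authors made as the mean over samples of counts from Salmon 1.9.0 divided by DESeq2 1.32.0 size factors. The submitters' notes also name cutadapt 4.1, HISAT2 2.2.1, SAMtools 1.16.1 and bedtools 2.30.0. The 9 tables' other columns hold the authors' own log2 fold changes, standard errors and p-values between temperatures, strains and assays, and the heat shock and translational efficiency columns hold comparisons too, so none were used. Intron and positional coverage tables were not used. The deposited transcript features (other values: lengths in nt and numbers of upstream reading frames) were used for TPS2, GSY1 and PGM2, the 3 of the 10 genes listed there.

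The tables of densities leave blanks only at the right end of a line, so only lines with 20 values could be assigned to samples, 1218 genes for the 5′ and 1208 for the 3′ UTR. Densities were tested as log2(density + 0.01) with limma 3.58.1 in R 4.3.3 (group means, trend in the variance), 8 RPF, 12 RNA or all 20 samples, with Benjamini-Hochberg adjustment over the 1218 genes and a threshold of 0.05. The study's count test could not be used, since no counts per sample were used here, and depth per sample is unknown. The tests were checked on simulated data. The paper describes the samples within each group as biological replicates. Alternatives were pseudocounts of 0.1 and 0.001, centring on each sample's median gene, a minimum mean density of 0.05, each replicate left out and the replicate number as a block. Coding lengths in the features table matched those of the reference for 868 of 868 genes. The genes and the wider list of 24 were chosen with earlier results of these data known. All 10 genes were to be named, and of the wider list up to 3 per comparison past the threshold with the largest difference.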

Additional observations from a re-analysis of the deposited data

How the results depend on the processing

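The comparison of cdc33-ts4-2 at 37°C with 25°C in RPF depended most on the processing. Of the 5 genes, 1 was called; 0 were with a pseudocount of 0.001 and 0 with the replicate block, and 0 to 2 with a replicate left out. Between RPF and RNA, 5 were called, and 3 to 5 with a replicate left out. Under all other alternatives these counts stayed within 1.5 times, but centring changed what they hold. In RPF of cdc33-ts4-2 the 1 call became NTH1 lower in place of TPS2 higher, and between RPF and RNA the 5 calls became 4 higher and 1 lower in place of 1 higher and 4 lower. In the other comparisons the counts were 0 under all alternatives.

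Centring on each sample's median gene moved the RPF differences of cdc33-ts4-2 to -0.67 for TPS1, -0.22 for TPS3, -1.01 for NTH1 (then called lower, limma adjusted p 0.022) and -0.10 for GSY2, and those of CDC33 to -0.13 for TPS1, -0.44 for TPS2, -0.49 for TPS3, -0.094 for NTH1 and -0.12 for GSY2. The medians of all genes were then -0.47 in RPF of cdc33-ts4-2 and -0.13 in RPF of CDC33. Centring also turned TPS1 in RNA of CDC33 to 0.079 and, between RPF and RNA, TPS3 to 1.93, NTH1 to 1.74 and GSY2 to 1.72. There it moved TPS2 to 3.57 and TPS1 to -0.54. A pseudocount of 0.1 turned the strain difference of TPS1 in RPF to 0.059. With a replicate left out, the log2 differences in RPF of CDC33 ran from -0.062 to 0.91 for TPS2, -0.29 to 1.04 for TPS3 and -0.19 to 1.68 for GSY2. The strain differences in RPF ran from -0.39 to 0.13 for TPS1 and -0.51 to 1.36 for GSY2. In RNA they ran from -0.31 to 0.016 for TPS2 and -0.20 to 0.11 for TPS3 in cdc33-ts4-2, from -0.16 to 0.076 for TPS1 in CDC33, and from -0.15 to 0.12 for the strain difference of NTH1. The cause of these changes was not tested.

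Counts over all genes moved too. In RPF, cdc33-ts4-2 had 209 calls, 380 with a pseudocount of 0.1 and 47 with the replicate block, and CDC33 had 170, 16 with centring, 300 with a minimum mean density of 0.05 and 102 with the block. Leaving out replicates gave 0 to 328 and 6 to 293. The strain difference in RPF had 3 calls and 0 to 6 under alternatives. In RNA, cdc33-ts4-2 had 46 calls and 30 to 46 with a replicate left out, 30 with centring. CDC33 had 7, and 4 with a pseudocount of 0.001, with centring, with the minimum and with the block. The strain difference in RNA had 12, 3 with centring, 6 with the block and 3 to 12 with a replicate left out.

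Cultures were split between temperatures, but no label says that a shared replicate number marks a shared culture. Deviations of same-numbered RNA samples at both temperatures correlated from -0.10 to 0.16 over 6 pairs, and those of RPF at -0.056 in cdc33-ts4-2 and -0.057 in CDC33. With 2 RPF samples per group the deviations mirror each other. These correlations therefore cannot decide whether the numbers pair the samples. The replicate block left TPS2 in RPF of cdc33-ts4-2 at 1.44 (limma adjusted p 0.088) and TPS3 between RPF and RNA at -0.42 (limma adjusted p 0.062), both past the threshold without it. Where a left-out replicate leaves 1 sample in a group, that sample is assumed to vary like the others. Depth per sample is unknown, so sparse densities such as those of TPS1 in RPF may rest on few reads. The mean levels had no alternative that could be run.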
